A study of Mus musculus with 12 samples.

Results

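The genes described are 4 receptors of lysophosphatidylserine (lysoPS), Gpr34, P2ry10, P2ry10b and Gpr174, and 3 enzymes of its metabolism, Abhd16a, Abhd12 and Pla1a. They were chosen by name, as the genes that sense, make or break down this lipid, and are 7 of the 56941 entries of the expression table. RNAseq was performed on sorted peritoneal cavity (PerC) B cells of control mice and of Cd21-Cre R26-LSL-Gpr34 Q340X-IRES-GFP mice, called KI. The KI allele sits in the Rosa26 locus and, once Cre has removed its stop cassette, expresses a truncated gain-of-function mouse GPR34 together with GFP. Cd21-Cre acts in mature B cells, and outside the B-lineage in some stromal cells. B2 were sorted as IgD+IgM+ and MemB as IgD-IgM-, and each combination of genotype and cell type had 3 libraries, labelled as biological replicates. The labels describe the other genotype only as control.

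LysoPS is a phospholipid left when phosphatidylserine (PS) loses 1 of its acyl chains. ABHD16A forms it inside cells and the secreted phospholipase PLA1A forms it outside them, whereas ABHD12 hydrolyzes it further. GPR34, P2RY10 and GPR174 are G protein-coupled receptors of the P2Y-like family that respond to it, and lymphocytes are known to use them in migration and in the control of activation. P2ry10b is a close relative of P2ry10 in the mouse.

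All 4 receptor genes lie on the X chromosome. In GRCm39, the assembly that mm39 denotes, Gpr34 occupies chrX:13489625-13507116 on the plus strand, inside the span of Cask, which is read from the minus strand. P2ry10 (chrX:106131909-106148580), P2ry10b (chrX:106192533-106219818) and Gpr174 (chrX:106299484-106340375) follow each other on the plus strand, with only pseudogenes annotated between these protein-coding genes. The enzymes are dispersed, with Abhd16a at chr17:35308192-35321969 on the plus strand, Abhd12 at chr2:150674408-150746693 on the minus strand and Pla1a at chr16:38212369-38253537 on the minus strand.

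The change that defines the KI allele falls in the last part of the Gpr34 coding sequence. In the reference transcript, codon 340 is a glutamine codon in the coding exon, and the Q340X change turns it into a stop, so that 339 of 375 residues are left and 36 (9.60%) are lost from the C-terminal tail. The reference coding sequence is shown with that codon in capitals and 10 codons on each side, because the KI allele carries the mouse gene changed at this codon.
Gpr34 around codon 340: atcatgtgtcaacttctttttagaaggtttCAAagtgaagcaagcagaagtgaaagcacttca
Reads of the endogenous gene and of the coding sequence of the KI allele are not told apart in the deposited count for Gpr34. The untranslated parts of the KI transcript are not given in the sources used here.

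P2ry10 and P2ry10b are the members most alike in sequence. Their coding sequences were identical at 81.2% of aligned bases and 73.8% of aligned residues, whereas the other pairs of receptors ran from 30.8% to 47.0% of residues. The longest stretch shared by both, 160 bases at coding positions 215 to 374 of either gene, is shown because pairs of 50-base reads that lie wholly inside it cannot be assigned to 1 gene.
P2ry10 and P2ry10b, shared stretch: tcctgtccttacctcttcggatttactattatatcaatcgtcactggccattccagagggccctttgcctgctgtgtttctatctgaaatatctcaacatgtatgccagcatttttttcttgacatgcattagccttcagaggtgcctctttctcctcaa
Of the 2883 windows of 50 bases in the P2ry10 transcript, 113 (3.92%) occurred unchanged in that of P2ry10b. Elsewhere the genes are easily separated, as in the stretch of 60 bases with the most differences between them, coding positions 603 to 662, in which capitals mark the 27 bases that differ.
P2ry10, positions 603 to 662: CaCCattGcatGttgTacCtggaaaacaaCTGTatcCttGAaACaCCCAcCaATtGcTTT
P2ry10b, positions 603 to 662: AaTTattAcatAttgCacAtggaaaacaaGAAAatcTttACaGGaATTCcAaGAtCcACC

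The deposited values are expected counts, which a program called RSEM estimates by sharing reads between genes that they fit equally well. Those of P2ry10 and P2ry10b were not whole numbers in any of the 12 libraries, whereas those of the other 5 members were whole in every library, within a tolerance of 0.001. Library totals lay between 29895068 and 39732124 counts, and 3 ribosomal RNA genes took 29.3% to 38.3% of them. The B cell marker Ms4a1 (CD20) was between 622 and 932 CPM (normalized counts scaled to library size) in every library. The sort did not empty the MemB libraries of Ighm RNA, which was at 2014 to 2688 CPM in control MemB and 297 to 566 CPM in KI MemB, against 2906 to 4341 CPM in B2. Replicate 3 of every group carried between 91355 and 105564 counts of Xist, the X inactivation transcript of females, and the other libraries carried at most 2175. Sex was thus balanced over the groups, and values without replicate 3 are given where they change a result. Because these are bulk samples, fewer cells that express a gene and less RNA per cell cannot be told apart.

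Of the 7 members, 6 passed the filter on low counts and were tested. Calls required an adjusted p under 0.05 in edgeR's quasi-likelihood test together with a log2 fold change beyond 1 in either direction. Gpr34 was the only member called in any of the 5 comparisons. It was 1 of 6 members called for KI against control in MemB, where 0.284% of all genes tested were called. It was also 1 of 6 in B2, where 0.0066% were called, which is Gpr34 alone, and 1 of 6 for MemB against B2 in control mice, where 0.264% were called. No member was called for MemB against B2 in KI mice, where 0.363% of genes were, nor for the difference between the KI effects, where 0.066% were.

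Gpr34 was already higher in MemB than in B2 before any KI allele was present. In control B2 its level was 4.47, 3.42 and 6.87 CPM in replicates 1, 2 and 3, and in control MemB it was 18.8, 19.4 and 30.8 CPM. The groups did not overlap, and their means were 4.92 ± 1.77 and 23.0 ± 6.79 CPM (SD, n = 3 each). Groups free of overlap were seen for 12.3% of genes tested in this comparison. By edgeR's test the endogenous gene rose 4.67-fold, a log2 fold change of 2.22 ± 0.39 (SE), with an adjusted p of 0.00324. With replicate 3 of all groups left out, the log2 fold change was 2.28 with an adjusted p of 0.0449. In a fit of the 6 control libraries alone it was 2.22, and the adjusted p of 0.486 no longer passed.

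Control MemB also differed from control B2 in markers of other cells. The 5 B-1 cell markers summed to 590 to 637 CPM in control MemB and 148 to 204 CPM in control B2, and the 10 T and NK cell markers to 107 to 201 CPM and 42.2 to 69.4 CPM. The mast cell markers summed to 45.0, 1.53 and 241 CPM in replicates 1, 2 and 3 of control MemB, and to at most 1.75 CPM in control B2. Replicate 3 of control MemB thus had both the highest Gpr34 and the highest mast cell markers of the control libraries, and without it the log2 fold change of Gpr34 was 1.95 with an adjusted p of 0.0192. Of the 11 macrophage markers, Gata6, C1qa, C1qc, Fcgr1 and Mertk were at 0 in every library, whereas Csf1r was at 13.8 CPM and Lyz2 at 8.71 CPM in replicate 2 of control MemB, against at most 0.27 and 2.698 CPM in control B2. Timd4 was at 0.91 and 0.81 CPM in replicates 1 and 3 of control MemB and at 0 in B2. The list summed to 11.4 to 24.7 CPM in control MemB and 6.82 to 24.9 CPM in control B2, ranges that overlap. The part of B-1 cells, T cells, mast cells and macrophages in the Gpr34 difference was not tested. The MemB gate, IgD-IgM-, leaves out cells with IgM on their surface, which is how the study gates B-1 cells.

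Single markers of B2, B-1 and other cells differed between the groups as well. Ighd, the IgD heavy chain gene, at 1297 to 1694 CPM in B2, fell by 2.74 on the log2 scale in control MemB and by 3.97 in KI MemB, and Fcer2a (CD23) fell by 2.30 in control MemB (all called). In KI MemB against KI B2, Ighm fell by 2.83 and Jchain rose by 5.45, both called whichever 1 library was left out. Cma1, a mast cell gene, was called higher in control MemB than in control B2 (6.23, adjusted p = 0.0477). That call was lost without 8 of the 12 libraries taken 1 at a time (adjusted p up to 0.363) and without replicate 3 of all groups (0.5004). It was also lost with the replicate block (0.0623), without robust estimation (0.140), with another normalization (RLE, 0.0502) and with a minimum count of 50 (0.0549). Bhlhe41, a transcription factor of B-1 cells, was higher in MemB by 1.73 in control and 2.05 in KI mice, both called. Zbtb32 was at 107 to 169 CPM in control MemB and 31.9 to 71.0 CPM in control B2, a separation seen for 12.3% of genes. It was not called, with log2 fold changes of 1.62 in control (adjusted p = 0.0527) and 1.18 in KI mice (adjusted p = 0.229). Ighv11-2 went the other way in KI mice, with a called log2 fold change of -3.64 for MemB against B2 (adjusted p = 0.0117). That call was lost without replicate 3 of KI B2 or of KI MemB (adjusted p up to 0.0688). It was also lost without replicate 3 of all groups (adjusted p = 0.172) and in a fit of the 6 KI libraries (adjusted p = 0.195). In control mice the value of Ighv11-2, 1.84, was not called (adjusted p = 0.354). Between genotypes in MemB, KI libraries had called falls on the log2 scale of Ighm (-2.46), Ighd (-1.35), the B-1 variable gene Ighv11-2 (-5.63), Nkg7 (-6.47) and Cma1 (-6.40), and a called rise of Jchain (3.80). Fcer2a, the remaining B2 marker, went the other way, with 76.7 to 150.5 CPM in KI MemB against 26.9 to 69.8 CPM in control MemB. Its log2 fold change of 1.15 did not pass (adjusted p = 0.116), and groups free of overlap were seen for 12.1% of genes there. The Jchain call was lost without KI MemB replicate 3 (adjusted p = 0.0505), that of Nkg7 without any 1 KI MemB library or control MemB replicate 1 or 2 (adjusted p up to 0.304), and that of Cma1 without 8 of the 12 libraries taken 1 at a time, all but the KI B2 libraries and control MemB replicate 2 (adjusted p up to 0.320). With the replicate block the calls of Nkg7 and Cma1 were lost (adjusted p = 0.127 each), without robust estimation as well (0.102 and 0.128), without replicate 3 of all groups that of Cma1 (adjusted p = 0.458), and in a fit of the 6 MemB libraries alone those of Ighd (adjusted p = 0.0831), Nkg7 (0.0576) and Cma1 (0.0564). The B cell marker Ms4a1 was called nowhere, nor were Xbp1, Cd3e, Cd4, Cd68, Adgre1 and Cpa3.

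With the KI allele, Gpr34 reached levels that no control library approached. The KI B2 libraries held 102, 113 and 100.3 CPM and the KI MemB libraries 132, 168 and 155 CPM. The means were 104.9 ± 6.70 CPM in KI B2 and 151.9 ± 18.2 CPM in KI MemB (SD, n = 3 each), and the ranges of the 4 groups did not overlap. The order of the levels was therefore control B2, control MemB, KI B2 and KI MemB, with a gap between each pair of neighbours. This gene checks the genotype labels, and all 6 KI libraries lay above all 6 control libraries.

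**Figure D1:**
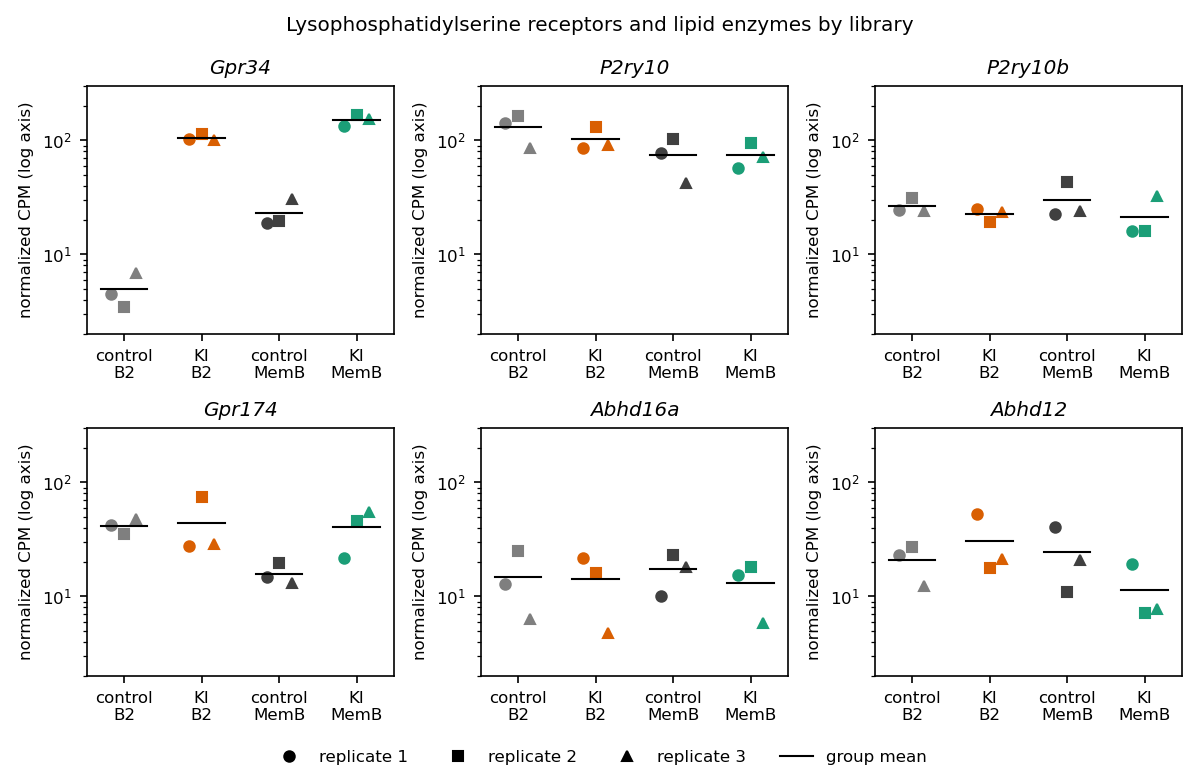
Normalized CPM, on a log axis, of the 6 members with counts in each of the 12 libraries, by group (n = 3 each); symbols mark replicates and lines the group means. Gpr34 forms 4 separate levels, from 3.42 to 6.87 CPM in control B2 up to 132 to 168 CPM in KI MemB, whereas the libraries of different groups are interleaved for P2ry10b, Abhd16a and Abhd12.

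The KI effect on Gpr34 was 21.3-fold in B2, a log2 fold change of 4.41 ± 0.42 (SE) with an adjusted p of 1.38e-07, and 6.60-fold in MemB, a value of 2.72 ± 0.39 with an adjusted p of 0.000222. Its rank by p among the genes tested was 1 in B2 and 4 in MemB. Groups did not overlap for 10.2% of genes in B2 and 12.1% in MemB. The difference between those log2 fold changes was -1.69 ± 0.52, with an unadjusted p of 0.00287, and did not pass after adjustment (adjusted p = 0.359). Gpr34 was the only member with an unadjusted p below 0.05 for that difference, a level reached by 8.49% of genes tested, and DESeq2 called it (adjusted p = 0.0245). On the linear scale the order turned: KI exceeded control by 100.02 ± 4.00 CPM in B2 and by 128.9 ± 11.2 CPM in MemB (SE of the difference of means). The smaller fold change in MemB thus stood beside the higher control level there, and the difference of the linear increments was not tested.

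Between the KI groups, Gpr34 was 1.45-fold higher in MemB than in B2, and although the libraries did not overlap, as was the case for 14.8% of genes, the difference of 0.53 ± 0.37 on the log2 scale did not pass (adjusted p = 0.651). The 95% interval of that log2 fold change ran from -0.21 to 1.28, and the 2.22 of the control groups lay outside it. The KI counts hold reads of the KI allele as well, so these fold changes are not of the same transcripts. Whether the endogenous difference between MemB and B2 was kept in KI mice cannot be read from them.

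Of the genes at the loci of the allele and of its Cre driver, 1 was called in any comparison, Cr2. Gt(ROSA)26Sor, the transcript of the Rosa26 locus that holds the allele, had 4.16, 3.98 and 7.78 CPM in KI MemB against 25.5, 32.4 and 19.6 CPM in control MemB, but the log2 fold change of -2.28 did not pass (adjusted p = 0.325), nor did that of -2.09 for MemB against B2 in KI mice (adjusted p = 0.366) or the difference of -3.41 between the KI effects (adjusted p = 0.380). In B2 its KI libraries, at 13.7, 6.95 and 47.2 CPM, overlapped the control libraries at 18.3, 4.02 and 8.71 CPM. Cr2, the complement receptor whose promoter drives Cd21-Cre, fell by 1.53 on the log2 scale from control B2 to control MemB (adjusted p = 0.0405), from 98.5 to 177 CPM down to 38.1 to 50.4 CPM, but lost that call without any 1 of the 6 control libraries (adjusted p up to 0.351, without control B2 replicate 3), and without replicate 3 of all groups (-1.11, adjusted p = 0.5004), without robust estimation (adjusted p = 0.0982) and in a fit of the 6 control libraries (adjusted p = 0.128). Setd5, a neighbour of the Rosa26 locus, had log2 fold changes of 0.19 in MemB and 0.29 in B2 for KI against control. Cask, which overlaps Gpr34 on the other strand, was between 0.45 and 11.9 CPM in all libraries and was called in no comparison. Gpr82, a receptor gene that neighbours Gpr34, was at 0.44, 6.89 and 10.5 CPM in KI MemB and at most 1.97 CPM elsewhere, and was called in none either (adjusted p = 0.637 for KI against control in MemB and 0.304 for MemB against B2 in KI mice).

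P2ry10 did not follow Gpr34 in either genotype. Its level was 142, 163 and 86.3 CPM in control B2 and 86.5, 130.4 and 90.9 CPM in KI B2, and for MemB 78.1, 102.8 and 42.5 CPM in control and 57.6, 94.4 and 72.1 CPM in KI mice. Means were higher in B2 than in MemB in both genotypes, but libraries of all 4 groups overlapped. The log2 fold change of MemB over B2 was -0.81 ± 0.35 in control mice (unadjusted p = 0.0292, adjusted p = 0.434) and -0.46 ± 0.35 in KI mice (adjusted p = 0.709). For KI against control it was 0.0039 ± 0.35 in MemB (95% interval -0.71 to 0.72) and -0.35 ± 0.35 in B2 (-1.07 to 0.37). The intervals of the KI effect on P2ry10 thus exclude in both cell types a rise of the size called for Gpr34.

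P2ry10b was not called in any comparison. Its libraries spanned 24.0 to 31.1 CPM in control B2 and 19.2 to 24.8 CPM in KI B2, and for MemB 22.4 to 43.4 CPM in control and 15.9 to 32.2 CPM in KI mice, all overlapping. Its log2 fold changes in the 4 comparisons of groups lay between -0.49 and 0.18, with SEs of 0.58 each and adjusted p of at least 0.838.

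Reads that fit both genes limit this split. P2ry10b took 12.8% to 36.3% of the counts of the pair, with 14.6%, 16.02% and 21.7% in control B2 and 22.3%, 29.7% and 36.3% in control MemB. The shares of the control groups did not overlap, and their means of 17.4% and 29.4% differed with a two-sided exact permutation p of 0.10, the smallest that 3 libraries against 3 can give (0.40 adjusted over the 4 comparisons). In KI mice the shares were 18.6% ± 5.04 in B2 and 22.3% ± 8.21 in MemB (SD, n = 3 each), with overlap. When the counts of both genes were added up, the log2 fold change of the sum for MemB against B2 in control mice was -0.59 (adjusted p = 0.519), between the values of the separate genes.

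Gpr174 had 42.2, 34.9 and 47.9 CPM in control B2 and 14.7, 19.5 and 13.1 CPM in control MemB, with no overlap. The log2 fold change of -1.40 ± 0.54 had an unadjusted p of 0.0136 but an adjusted p of 0.387, so that it was not called. KI MemB had 21.9, 45.7 and 54.8 CPM, again above every control MemB library, and the log2 fold change was 1.37 ± 0.54 (unadjusted p = 0.0155, adjusted p = 0.351). Non-overlap was seen for 2 of 6 members in either comparison, Gpr34 and Gpr174, against the 12.3% and 12.1% of all genes given above. In KI B2 the values were 27.8, 74.8 and 28.9 CPM, which enclosed the control B2 range, and KI against control there gave 0.073 ± 0.53 (adjusted p = 0.999).

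Neither difference of Gpr174 passed in any alternative fit, and without replicate 3 of all groups the log2 fold changes were -1.16 (adjusted p = 0.593) for MemB against B2 in control mice and 0.99 (adjusted p = 0.628) for KI against control in MemB. The KI effect on Gpr174 differed between MemB and B2 by 1.299 ± 0.747 on the log2 scale, which did not pass (adjusted p = 0.673). Markers of other cells also differed between control and KI MemB, in both directions. T and NK cell markers summed to 107 to 201 CPM in control MemB and 10.3 to 54.3 CPM in KI MemB. B-1 cell markers summed to 590 to 637 and 381 to 421 CPM, and plasma cell markers to 35.7 to 111 and 165 to 264 CPM. Most of the last difference was Jchain, with means of 10.1 CPM in control and 140.2 CPM in KI MemB, whereas Xbp1 had 61.1 and 64.0 CPM and Prdm1 6.83 and 4.60 CPM. Sdc1 (0.039 and 4.83 CPM) and Tnfrsf17 (0.35 and 5.14 CPM) had higher means in KI MemB without being called, and Sdc1 was above 0.1 CPM in replicate 1 alone of KI MemB. Mast cell markers summed to 1.53 to 241 CPM in control MemB and at most 1.77 CPM in KI MemB, and to 74.9 CPM in replicate 3 of KI B2. The B2 marker Fcer2a had means of 269 CPM in control B2 and 283 CPM in KI B2. In MemB its means were 54.6 CPM in control and 121 CPM in KI mice, whereas the B2 markers Ighm and Ighd were lower in KI MemB. T cells are known to express Gpr174 and P2ry10, and the group with the highest T and NK cell markers, control MemB, had the lowest Gpr174. Within control MemB the order was the opposite, with marker sums of 107, 131 and 201 CPM beside 13.1, 14.7 and 19.5 CPM of Gpr174 in replicates 3, 1 and 2. The part of these cells in the difference was not tested.

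**Figure D2:**
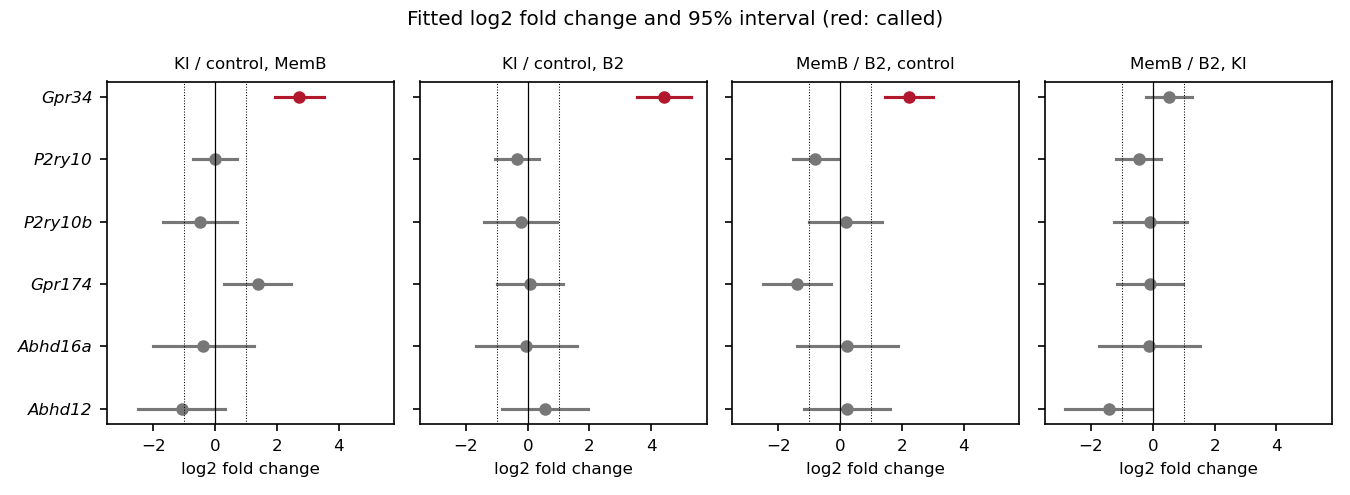
Fitted log2 fold change (points) and its 95% interval (lines) for the 6 tested members in 4 comparisons, from edgeR's fit of 12 libraries; red marks called genes and dotted lines the limits of -1 and 1. Only Gpr34 is red, at 2.72 and 4.41 for KI against control and 2.22 for MemB against B2 in control mice, and the intervals of Abhd16a and Abhd12 span more than those of P2ry10.

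Levels of different genes were compared as CPM per kilobase of exonic sequence. In control B2 the order was P2ry10 at 41.2 ± 12.5, Gpr174 at 7.72 ± 1.201, P2ry10b at 4.40 ± 0.67 and Gpr34 at 1.60 ± 0.58 CPM per kilobase (SD, n = 3 each). In control MemB, P2ry10 at 23.5 ± 9.56 led Gpr34 at 7.50 ± 2.21, P2ry10b at 4.99 ± 1.93 and Gpr174 at 2.92 ± 0.62. In replicate 2 of control MemB, P2ry10b at 7.22 lay above Gpr34 at 6.34 CPM per kilobase, so that the order of these neighbours was not the same in every library. In KI MemB, Gpr34 led with 49.5 ± 5.92 CPM per kilobase, before P2ry10 at 23.5 ± 5.84, Gpr174 at 7.55 ± 3.15 and P2ry10b at 3.55 ± 1.56. In KI B2, Gpr34 at 34.2 ± 2.18 and P2ry10 at 32.4 ± 7.61 did not differ beyond their spread, with Gpr174 at 8.12 ± 4.97 and P2ry10b at 3.75 ± 0.49 below them. Gpr34 was scaled by the 3068 exonic bases of the endogenous gene, of which 1128 are coding. If the KI transcript holds fewer of these bases, the level of Gpr34 per kilobase in KI mice is understated. The order of Gpr34 and P2ry10 in KI B2 is therefore not settled.

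As a share of the summed level of the 4 receptors on this scale, Gpr34 made up 2.50%, 1.74% and 5.29% in control B2, 16.4%, 12.8% and 33.6% in control MemB, 47.6%, 38.7% and 46.3% in KI B2 and 63.5%, 57.3% and 56.9% in KI MemB. P2ry10 went the other way, from a mean of 73.9% ± 8.39 in control B2 and 58.8% ± 12.1 in control MemB to 41.0% ± 2.15 in KI B2 and 27.8% ± 2.89 in KI MemB (SD, n = 3 each). These are shares of a sum, so a rise of 1 receptor lowers the others without any change in their RNA. In KI libraries they also rest on the length of the endogenous Gpr34, and the length of the KI transcript is not known here. With coding length in place of exonic length, a choice added after the data were seen, the mean share of Gpr34 was 36.2% in KI B2 and 50.2% in KI MemB, against 44.2% and 59.2% by exonic length. In control MemB that choice turned the order of neighbours, with P2ry10b at 20.1% above Gpr34 at 15.95%, against 12.7% and 20.9% by exonic length, and in KI B2 it put P2ry10 at 39.6% above Gpr34.

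**Figure D3:**
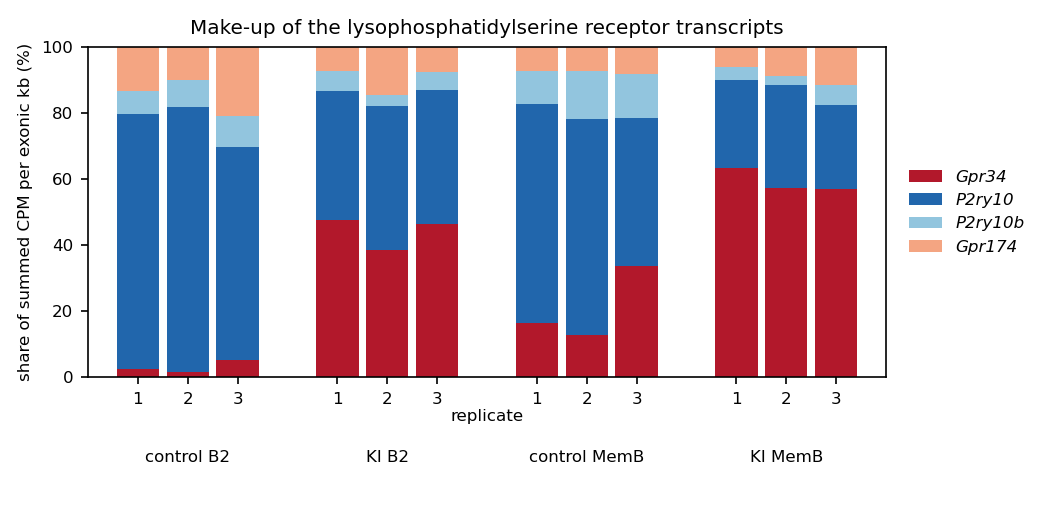
Share (%) of each receptor in the summed CPM per exonic kilobase of Gpr34, P2ry10, P2ry10b and Gpr174, 1 bar per library, 3 replicates per group. Gpr34 grows from at most 5.29% in control B2 to between 12.8% and 33.6% in control MemB and to between 56.9% and 63.5% in KI MemB.

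Of the enzymes, Abhd16a, the PS lipase that forms lysoPS, varied more between replicates than between groups. It had 12.7, 24.9 and 6.32 CPM in control B2 and 21.8, 16.1 and 4.77 CPM in KI B2, and for MemB 10.2, 23.2 and 18.3 CPM in control and 15.5, 18.0 and 5.90 CPM in KI mice. Replicate 3 was the lowest in 3 of the 4 groups. Its log2 fold changes in the 4 comparisons of groups lay between -0.39 and 0.23, each with an SE of 0.80, and no adjusted p was below 0.924. Intervals of this width, from -2.02 to 1.25 for KI against control in MemB, do not exclude a change beyond the limit of 1 in either direction.

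Abhd12, the lysoPS lipase, had 19.3, 7.17 and 7.75 CPM in KI MemB, 53.2, 17.7 and 21.2 CPM in KI B2, 40.9, 11.03 and 20.9 CPM in control MemB and 23.2, 27.3 and 12.3 CPM in control B2. KI MemB had the lowest mean, 11.4 ± 6.86 CPM (SD, n = 3), but its replicate 1 lay within the ranges of the other groups. The log2 fold change of MemB over B2 in KI mice was -1.43 ± 0.69, and its unadjusted p of 0.0480 was the only one under 0.05 among the members in that comparison, as for 10.6% of genes tested, but the adjusted p was 0.468 and DESeq2 called no member either. For KI against control the log2 fold change was -1.09 ± 0.69 in MemB (adjusted p = 0.592) and 0.55 ± 0.68 in B2 (adjusted p = 0.999).

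Pla1a, the secreted phospholipase that forms lysoPS outside cells, had 0 counts in each of the 12 libraries. A count of 0 allows up to 3 counts, which here is 0.0734 to 0.102 CPM depending on the library, and this covers counting error only. Transcripts of Pla1a were therefore not detectable at this depth in either cell type or genotype. The 10 markers fixed for fibroblasts and mesothelium, among them Pdgfra, Col1a1 and Msln, all failed the filter and summed to at most 0.134 CPM in a library.

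Around the members, 49 genes of related function were described in 5 lists, and their fits without single libraries were added after the data were seen. Of the 49, 29 passed the filter: 5 of 11 P2Y and related receptors, 3 of 3 genes of PS synthesis, 9 of 12 of PS exposure and internalisation, 9 of 12 lysophospholipid hydrolases and acyltransferases, and 3 of 11 other phospholipases. None of the 29 was called for KI against control in MemB or in B2, or for the difference between those effects. Of all genes tested, 0.284%, 0.0066% and 0.066% were called there, so the lack of calls does not set these lists apart. Plscr1, a phospholipid scramblase picked out after its values were seen, had a log2 fold change of -1.81 for KI against control in MemB (unadjusted p = 0.0235, adjusted p = 0.368). The median log2 fold change of the 29 was -0.11 in MemB and -0.023 in B2, beside -0.033 and -0.026 for all genes tested.

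MemB and B2 differed in 2 of the 29 genes in control mice, both of them receptors of the P2Y-like family, and in 1 in KI mice. Of all genes tested, 0.264% were called in control mice and 0.363% in KI mice. P2ry13, a receptor for ADP, was at 0.24, 0.10 and 0.31 CPM in control B2 and 23.2, 27.1 and 10.4 CPM in control MemB, which gave a log2 fold change of 6.53 ± 1.32 with an adjusted p of 0.0153. It was called in KI mice too, at 5.56 ± 1.26 (adjusted p = 0.0311), with 0.35, 0.27 and 0.18 CPM in KI B2 and 30.1, 4.04 and 3.91 CPM in KI MemB. Its counts in B2 were as low as 3 per library, so that the size of this fold change is uncertain. The call was lost without 5 of the 12 libraries taken 1 at a time in control mice (any control B2 library, or control MemB replicate 1 or 2), and without 6 in KI mice, where it was 3.89 (adjusted p = 0.407) without KI MemB replicate 1. With the replicate block the call in KI mice was lost as well (5.14, adjusted p = 0.0726), and without replicate 3 of all groups both calls were (adjusted p = 0.0503 in control and 0.110 in KI mice). The call in KI mice was also lost without robust estimation (adjusted p = 0.0642) and in a fit of the 6 KI libraries (adjusted p = 0.112). Gpr171, another receptor of this family, fell by 1.63 on the log2 scale in control mice (SE 0.32, adjusted p = 0.0129), from 158 to 212 CPM in B2 to 55.7 to 63.7 CPM in MemB; without control B2 replicate 1 or 3 or control MemB replicate 1 or 2 its adjusted p rose to as much as 0.0865, and without replicate 3 of all groups to 0.171. In KI mice its log2 fold change of -1.02 did not pass (adjusted p = 0.211). Lpar6, a lysophosphatidic acid receptor, was at 8.12 to 29.5 CPM in control B2 and 1.73 to 7.94 CPM in control MemB, with an adjusted p of 0.447.

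The most abundant genes of each list that make, expose or remodel PS and its products were detected in all groups. Ptdss1, a PS synthase, had means of 22.7 CPM in control and 22.6 CPM in KI B2, and 35.1 CPM in control and 20.8 CPM in KI MemB. Pisd, which decarboxylates PS in mitochondria, had means from 7.75 CPM in KI B2 to 12.2 CPM in KI MemB. Atp11b and Atp8a1, flippases of the PS exposure list, had means of 91.2 to 135.9 CPM and 42.1 to 96.0 CPM over the groups, and the lysophospholipid enzymes Lpcat1 and Lypla1 of 71.2 to 86.4 CPM and 31.7 to 52.4 CPM. Ddhd1 and Ddhd2, intracellular phospholipases of the kind that release an acyl chain, had means of 37.6 to 49.6 CPM and 14.3 to 31.4 CPM. Atp11b, at 82.4 to 96.0 CPM in KI B2 and 122 to 149 CPM in KI MemB, and Ddhd2, at 8.28 to 24.5 CPM in control B2 and 31.1 to 31.9 CPM in control MemB, did not overlap between those groups, as for 14.8% and 12.3% of all genes. Ddhd2 in KI MemB, at 5.58 to 27.1 CPM, also lay below control MemB, a separation shared by 12.1% of genes. Lpcat2, a lysophospholipid acyltransferase picked out after its values were seen, had means of 2.84 CPM in control and 8.29 CPM in KI B2 against 0.107 and 0.151 CPM in MemB, with log2 fold changes for MemB against B2 of -4.67 in control (adjusted p = 0.323) and -5.74 in KI mice (adjusted p = 0.181), sizes that are uncertain at as few as 3 counts per library. No gene in this paragraph was called in any of the 5 comparisons.

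**Figure D4:**
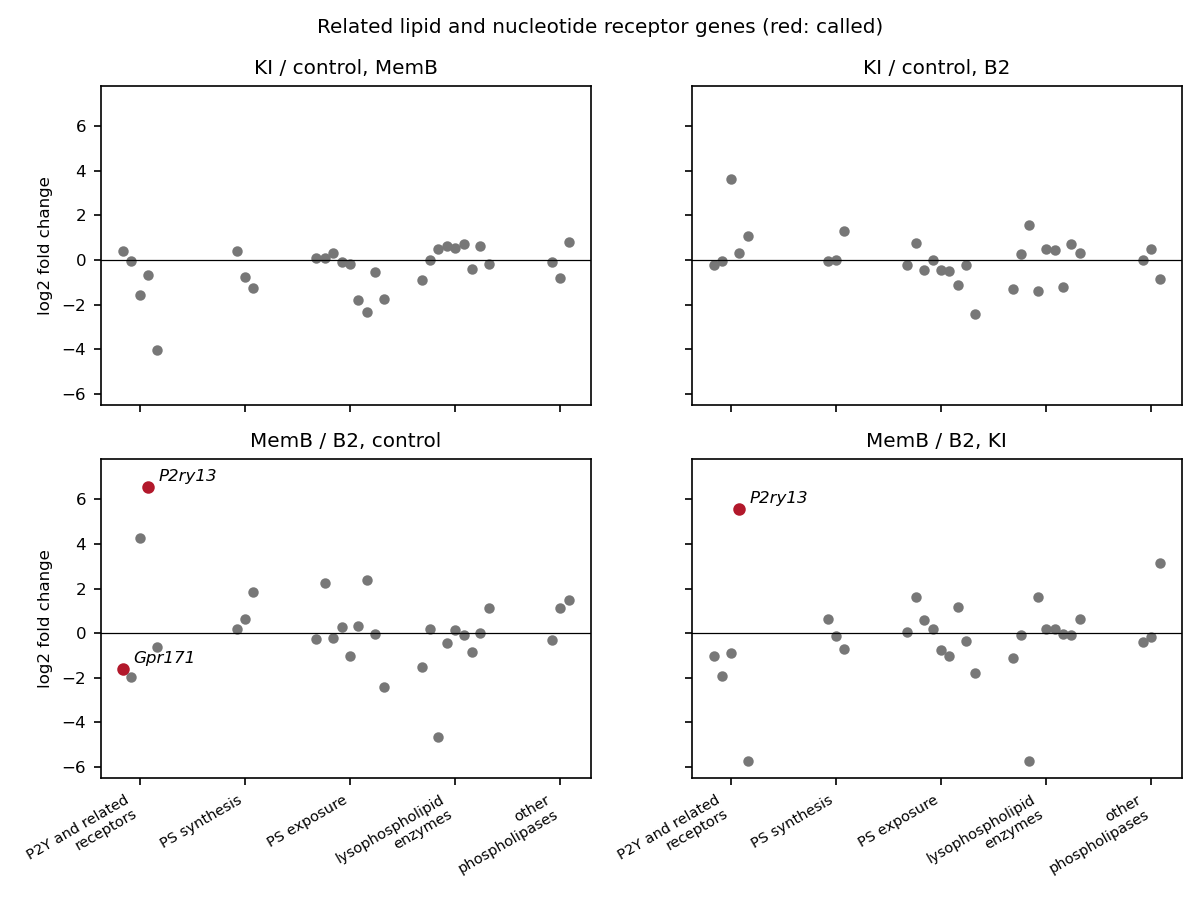
Log2 fold change of each of the 29 tested genes of 5 related lists in 4 comparisons, 1 point per gene; red points are called and named. P2ry13, at 6.53 in control and 5.56 in KI mice, and Gpr171, at -1.63 in control mice, are the only red points, and both panels of KI against control have none.

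The genes most like each receptor over the 12 libraries were found by the root mean square distance of their centred log2 CPM, among 13106 genes, and are given as a description. For Gpr34 they were Eml2, Ncapg and Foxm1, at distances of 1.04, 1.08 and 1.15, where the median gene was at 2.24. Their fit was loose: Foxm1 had means of 4.10 CPM in control B2, 8.86 in control MemB, 21.8 in KI B2 and 18.8 in KI MemB. For P2ry10 they were Fis1, Zfand5 and Chmp3, at 0.27, 0.29 and 0.34 against a median of 1.12. For P2ry10b, which varied little, they were Tut7, Lbr and Cd24a, at 0.24, 0.26 and 0.26 against 1.08. For Gpr174 they were Cr2, Gm43061 and Retreg1, at 0.39, 0.40 and 0.47 against 1.24, and Cr2 had its lowest mean, 44.3 CPM, in the same group as Gpr174, control MemB.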

How the data were processed

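The 12 libraries, 3 per group, were prepared with an amplification kit and read as paired ends. Per the labels and methods, the authors used cutadapt 4.5 for trimming, STAR 2.7.11a for alignment to mm39 and RSEM 1.3.3 to estimate expected counts per gene, which were deposited without normalization. The gene annotation and strand setting are not given in the sources used here. Expected counts were rounded and tested with edgeR 4.0.16 (R 4.3.3, limma 3.58.1) in 1 model of 4 group means, by robust quasi-likelihood. Genes with low counts were removed by filterByExpr (minimum 10), libraries were scaled by TMM, and p was adjusted by Benjamini-Hochberg over the remaining 15148 genes. SE is the log2 fold change divided by the root of the F statistic. Common biological variation was 91.4%. DESeq2 1.42.0, other normalizations and filters, a replicate block and leaving out libraries were alternatives. Pairs of replicates differed beyond sampling noise.

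Members and lists were chosen with earlier results of these data known. Named were all members, each list gene called, the 2 most abundant of each list, and the 3 genes nearest each receptor. Of the markers, 1 mast cell gene (Tpsb2) was not matched, and 1 named marker is not reported here. Loci and sequences are from GENCODE M39 on GRCm39. Reads carry no molecular identifiers.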

Additional observations from a re-analysis of the deposited data

How the results depend on the processing

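The count of members called was unchanged in 117 of 119 refits. It rose from 0 to 1 for the difference between the KI effects with DESeq2, which called 426 genes there against 10 for edgeR, and fell from 1 to 0 for MemB against B2 in control mice when only the libraries compared were fitted; the cause was not tested. The replicate block left all 5 counts as they were (1 for KI against control in MemB); same-numbered libraries did not deviate together (correlations of -0.014 to 0.034), so numbers were not read as pairs. Gpr34 was called for KI against control in MemB and in B2 under all 24 alternatives of each.

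Of the log2 fold changes of members, 30 of 714 changed sign, none of them called. Adding up P2ry10 and P2ry10b gave -0.12 for P2ry10 (KI against control in MemB), and 0.21 (difference of the KI effects) and -0.59 (MemB against B2 in control mice) for P2ry10b, and the replicate block gave -0.0615 for Gpr174 (KI against control in B2). The other changes came from leaving out libraries, with these ranges. For KI against control in MemB they ran from -0.27 to 0.31 for P2ry10 and -0.69 to 0.02 for Abhd16a, and in B2 from -0.56 to 0.43 for Gpr174, -0.49 to 0.58 for Abhd16a and -0.10 to 0.83 for Abhd12. For the difference of those effects they ran from -0.71 to 0.11 for P2ry10b and -0.97 to 0.10 for Abhd16a. For MemB against B2 in control mice they ran from -0.18 to 0.36 for P2ry10b, -0.16 to 0.85 for Abhd16a and -0.38 to 0.56 for Abhd12, and in KI mice from -0.50 to 0.10 for P2ry10b, -0.60 to 0.53 for Gpr174 and -0.53 to 0.33 for Abhd16a. With 3 libraries per group, the SE of the log2 fold changes between groups was 0.80 for Abhd16a and 0.68 to 0.69 for Abhd12. No fit of the 6 libraries compared exists for the difference of the KI effects, which needs all 12.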
